A study of Mus musculus with 9 samples.

Results

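The genes described here are 9 receptor tyrosine kinases of growth factors, Met, Mst1r, Axl, Tyro3, Egfr, Pdgfra, Pdgfrb, Fgfr1 and Fgfr2, together with Hgf, the ligand of MET. They were chosen by gene name, with earlier results of these data known, and make up 10 of the 20018 genes that a RefSeq accession on the array named. Each gene is represented by its brightest probe. The arrays compared triploid clones 1 to 3 and tetraploid clones 1 to 3 with diploid clones 1 to 3 of mouse embryonic cells, 1 one-colour array per clone. The genotype field gives p53-/- for all 9 clones, so the diploid clones also lack this tumour suppressor. The free-text description of each clone other than diploid clone 1 names a number other than p53, and the genotype field was used. All were grown untreated in medium with 10% fetal bovine serum. The title of the study concerns triploidy and genome instability in tumour formation. The labels name no strain and do not say how the clones were derived from one another or from separate cultures, so p-values measure only the spread between these clones, which may be technical.

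Receptor tyrosine kinases are membrane proteins that bind a growth factor outside the cell, pair up and phosphorylate each other and their adaptors inside it, which switches on the RAS-MAPK and PI3K pathways. In mesenchymal cells, PDGF and FGF receptors are known for driving proliferation and migration, while MET, the receptor of hepatocyte growth factor (HGF), is best known from epithelial cells that respond to HGF made by neighbouring mesenchyme. MST1R, also called RON, is the close relative of MET and binds macrophage-stimulating protein. AXL and TYRO3 bind the vitamin K-dependent protein GAS6, and TYRO3 also binds the related PROS1.

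Probe sequences were not used here, so the promoters of the genes on which the results turn are shown, to place Met, Mst1r and Axl in the genome. Each window runs from 250 bases before to 50 bases after a transcription start, 5′ to 3′ on the strand of the gene, from RefSeq on GRCm38.p6. Mst1r has 2 listed starts, the second inside the gene. Capitals mark matches on either strand to the AP-1 motif TGANTCA, the GC box GGGCGG, the TATA box TATAAA and the E-box CACGTG.
Met, chr6:17463707-17464006, plus strand: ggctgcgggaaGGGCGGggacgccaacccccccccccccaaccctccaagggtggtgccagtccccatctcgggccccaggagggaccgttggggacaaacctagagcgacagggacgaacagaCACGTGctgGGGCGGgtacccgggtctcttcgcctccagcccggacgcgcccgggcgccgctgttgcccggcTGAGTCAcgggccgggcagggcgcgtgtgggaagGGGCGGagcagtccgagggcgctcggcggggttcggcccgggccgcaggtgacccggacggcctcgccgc
Mst1r, first start, chr9:107906639-107906938, plus strand: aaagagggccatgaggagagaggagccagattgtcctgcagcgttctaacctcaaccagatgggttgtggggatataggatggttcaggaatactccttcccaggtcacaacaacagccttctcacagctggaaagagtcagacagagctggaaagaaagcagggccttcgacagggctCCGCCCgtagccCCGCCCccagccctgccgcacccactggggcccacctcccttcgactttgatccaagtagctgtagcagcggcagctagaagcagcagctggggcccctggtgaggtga
Mst1r, second start, chr9:107914753-107915052, plus strand: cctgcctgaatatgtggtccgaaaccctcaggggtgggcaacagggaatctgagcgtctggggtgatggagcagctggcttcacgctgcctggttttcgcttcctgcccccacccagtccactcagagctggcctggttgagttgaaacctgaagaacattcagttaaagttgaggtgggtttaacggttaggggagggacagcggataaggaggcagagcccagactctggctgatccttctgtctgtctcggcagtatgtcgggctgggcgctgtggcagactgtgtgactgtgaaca
Axl, chr7:25788684-25788983, minus strand: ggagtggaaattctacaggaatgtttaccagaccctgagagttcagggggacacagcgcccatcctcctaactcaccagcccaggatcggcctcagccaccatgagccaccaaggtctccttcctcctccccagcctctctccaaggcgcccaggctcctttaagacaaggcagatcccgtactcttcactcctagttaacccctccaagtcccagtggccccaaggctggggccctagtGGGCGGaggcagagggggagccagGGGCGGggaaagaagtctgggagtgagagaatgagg
The Met window held 1 AP-1 match, 3 GC boxes and 1 E-box, had a GC content of 75.7% and a ratio of observed to expected CpG of 0.794. The Axl window held 2 GC boxes at a CpG ratio of 0.22. The first Mst1r window held 2 GC boxes at a CpG ratio of 0.306, and the second held 0 of the 4 motifs at 0.38. No 2 marked matches overlap. Among 32817 mouse promoter windows of 300 bases, 7.81% held the AP-1 motif, 35.6% the GC box, 13.6% the TATA box and 7.15% the E-box. A match describes the letters only, and the arrays did not measure what binds there.

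All values below are log2 signals from which the 75th percentile of the same array was subtracted, so a value of 0 is that percentile and a difference of 1 is a doubling. On each array, 44.8% to 50.9% of the spots exceeded background clearly. Triploid clone 1 stood apart from triploid clones 2 and 3, with Pearson's r across features of 0.948 and 0.956 against 0.985 between those clones. It was also the triploid clone nearest to the other groups, with r of 0.949 to 0.965 with diploid and 0.930 to 0.957 with tetraploid clones. For triploid clones 2 and 3, r was 0.920 to 0.947 with diploid and 0.909 to 0.946 with tetraploid clones. Leaving out triploid clone 1 thus leaves the 2 triploid clones farthest from the other groups. Differences of the receptors whose call or sign turned without triploid clone 1 are given both ways. Diploid clone 1 was the only array on its slide. Of 9 fibroblast and mesenchyme markers, 8 lay above background on all 9 arrays, the exception being Thy1, which was on 7. Of 8 epithelial markers, Krt14 lay above background on all 9 arrays, Krt18 and Esrp1 on 6, Krt5 on 4, Krt8 on 2 and Cldn4 on 1, and Cdh1 and Epcam on 0. Of 4 blood and macrophage markers on the array, Csf1r and Itgam lay above background on all 9 arrays and Ptprc and Adgre1 on 0.

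**Figure D1:**
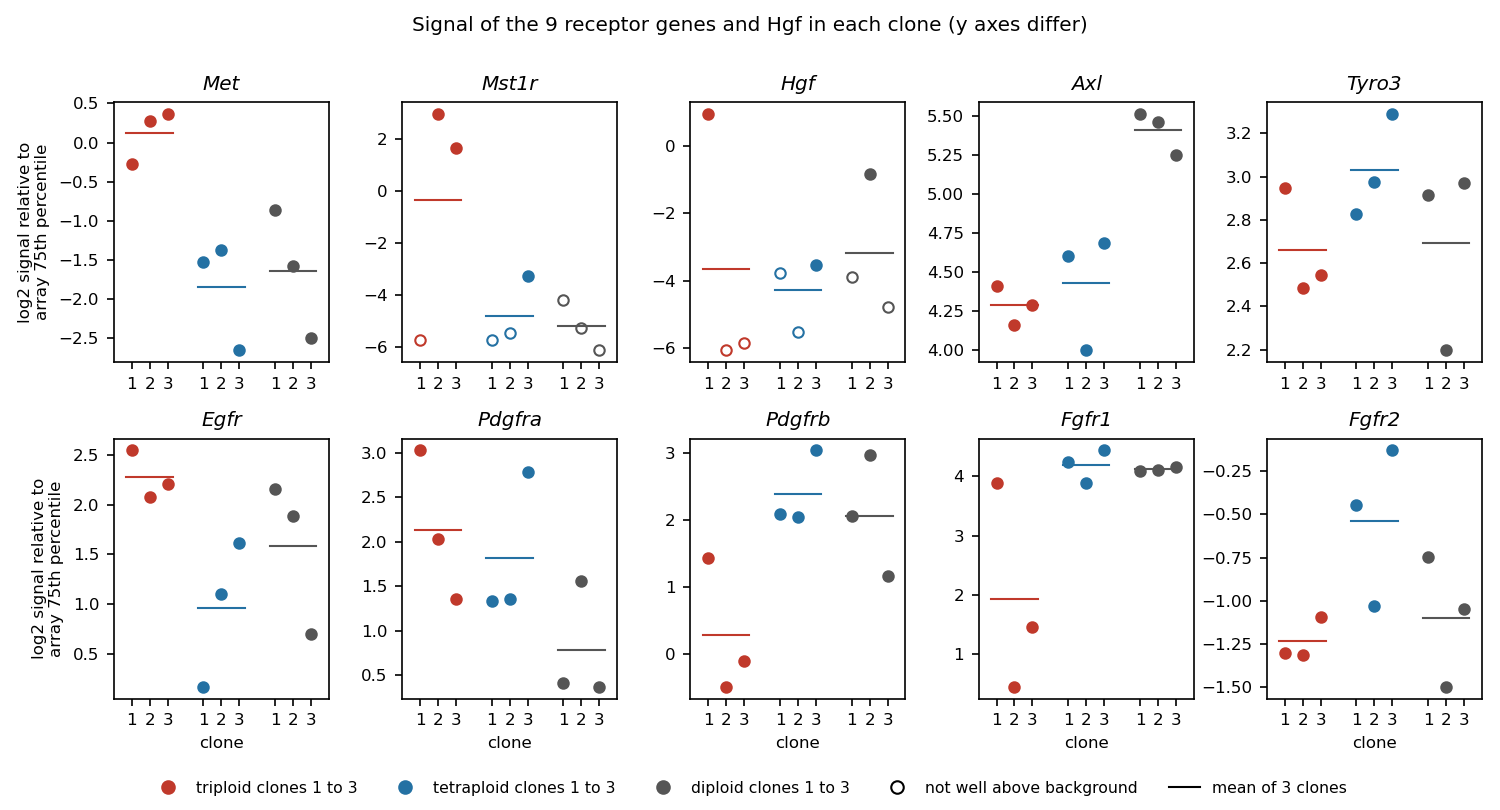
Log2 signal relative to the array's 75th percentile (y axis, a scale per gene) of the 9 receptor genes and Hgf in triploid, tetraploid and diploid clones 1 to 3 (x axis); filled points are well above background, open points are not, and lines are means of 3 clones. Triploid clones 2 and 3 lie apart from the other 7 clones at Mst1r, where they are at 2.94 and 1.64, and at Fgfr1, where they are at 0.45 and 1.46.

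Met had its highest values in the triploid clones, and Mst1r and Hgf were each well above background in only 3 of the 9 clones. Met was at -0.28, 0.27 and 0.36 in triploid clones 1 to 3, at -1.52, -1.37 and -2.65 in tetraploid clones 1 to 3, and at -0.86, -1.57 and -2.50 in diploid clones 1 to 3. All 3 triploid values lay above all 6 others. The mean was 0.12 ± 0.35 in triploid clones, -1.85 ± 0.70 in tetraploid clones and -1.64 ± 0.82 in diploid clones (SD, n = 3 each). The log2 difference was 1.76 ± 0.47 between triploid and diploid clones (SE, adjusted p = 0.0880, limma with Benjamini-Hochberg adjustment over all features), and 1.97 ± 0.47 between triploid and tetraploid clones (adjusted p = 0.0600). Neither passed the threshold of 0.05, and without triploid clone 1 the second did (2.17, adjusted p = 0.0491), as it did without diploid clone 3 (adjusted p = 0.0429). Over the 22 alternatives its adjusted p ranged from 0.0367 to 0.180. Tetraploid and diploid clones overlapped at Met and differed by -0.21 (95% interval of -1.26 to 0.85, limma). The probe of Met was printed on 10 spots per array, whose SD within an array was at most 0.25, a spread of spots and not of clones.

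Mst1r reached 2.94 and 1.64 in triploid clones 2 and 3 and was not well above background in triploid clone 1, where it was at -5.72. In the tetraploid clones, clone 3 alone was above background, at -3.28, and clones 1 and 2 were at -5.72 and -5.48. No diploid clone was above background, with values of -4.22, -5.29 and -6.13. The triploid group thus spans nearly the whole range seen and overlaps both other groups. Mst1r did not enter the test, because no group had it above background on all 3 arrays. For the diploid clones, the dimmest probe well above background on each array stood in. The mean of triploid clones 2 and 3, which measured the gene, was at least 67.9-fold higher than this. With triploid clone 1 included at its undetected value, the triploid mean was 10.65-fold higher, which is not a strict bound. The same holds for the ratios of 3.37-fold without triploid clone 2 and 5.28-fold without triploid clone 3. In a fit with no filter on dim probes, which gives no bound, Mst1r had an adjusted p of 0.371 between triploid and diploid clones and of 0.383 between triploid and tetraploid clones (limma). The 10 spots of its probe had an SD of at most 0.18 on the 3 arrays where it was above background.

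Of 5 mesothelial markers, Wt1, Upk3b, Lrrn4 and Bnc1 were highest in the triploid clones where Mst1r was high, and Msln was not. Lrrn4 and Bnc1 were above background in 3 of 9 clones, Wt1 and Upk3b in 4 and Msln in 9. Wt1, a transcription factor of mesothelium and kidney, was at 5.85 and 5.39 in triploid clones 2 and 3 and at -5.71 in triploid clone 1. It was between -5.52 and -6.62 in tetraploid clones and between -1.32 and -6.25 in diploid clones. Msln was at 1.95, 5.25 and 5.05 in triploid clones 1 to 3, at 4.04, 5.54 and 4.37 in tetraploid clones and at 3.94, 1.45 and 1.83 in diploid clones. Its highest value was thus in tetraploid clone 2, where Mst1r was not above background. The summed signal of the 5 markers, as a multiple of the 75th percentile, ranged from 3.96 to 145 in triploid clones, from 16.6 to 46.5 in tetraploid clones and from 3.14 to 16.2 in diploid clones. The highest sums belonged to triploid clones 2 and 3. The part of these markers in the values of the receptors was not tested, and in bulk RNA fewer cells of a type and less RNA per cell cannot be told apart.

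Hgf was bright in a different clone. It was at 0.96 in triploid clone 1, where Mst1r was dim, and not well above background in triploid clones 2 and 3, at -6.08 and -5.87. In the tetraploid clones it was above background in clone 3 alone, at -3.53, with clones 1 and 2 at -3.77 and -5.53. In the diploid clones it was above background in clone 2 alone, at -0.83, with clones 1 and 3 at -3.90 and -4.79. Each group thus had 1 clone with signal and the groups overlapped throughout, so no group difference is given. Hgf did not enter the test either.

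Axl was lower in both polyploid groups than in the diploid clones without passing the test. It was at 4.41, 4.16 and 4.28 in triploid clones 1 to 3, at 4.60, 4.00 and 4.68 in tetraploid clones 1 to 3, and at 5.51, 5.46 and 5.25 in diploid clones 1 to 3. All 6 polyploid values lay below all 3 diploid values. The mean was 4.28 ± 0.13 in triploid, 4.43 ± 0.38 in tetraploid and 5.41 ± 0.14 in diploid clones (SD, n = 3 each). The difference of -1.12 ± 0.24 between triploid and diploid clones missed the threshold narrowly (adjusted p = 0.0516, limma). It passed without triploid clone 1 (-1.19, adjusted p = 0.0409) and without tetraploid clone 2 (adjusted p = 0.0351), and under 4 of the other settings tried, with a range of 0.0351 to 0.186 over 22 alternatives. The difference between tetraploid and diploid clones was -0.98 ± 0.24 (adjusted p = 0.117). These differences share the diploid clones. Of all the marker classes listed, only blood and macrophage also had a lower summed signal in every polyploid clone than in any diploid clone. The sum of its 4 markers, as a multiple of the 75th percentile, was 17.3 to 25.15 in triploid and 15.99 to 23.6 in tetraploid clones. In diploid clones this sum was 26.1 to 39.5. It came almost wholly from Csf1r and Itgam, and Ptprc and Adgre1 were not above background in any clone. Csf1r by itself overlapped, at 3.52 in triploid clone 1 against 3.23 to 3.56 in diploid clones. Itgam by itself did not, but narrowly, at 3.95 in tetraploid clone 2 and 3.97 in diploid clone 3. The part of this sum in the Axl values was not tested. At Axl, triploid and tetraploid clones differed by -0.14, with a 95% interval of -0.68 to 0.39.

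Tyro3, the other receptor for GAS6 in the set, varied little. Its values were 2.95, 2.49 and 2.55 in triploid clones 1 to 3, 2.83, 2.98 and 3.29 in tetraploid clones 1 to 3, and 2.92, 2.20 and 2.97 in diploid clones 1 to 3. The 3 groups overlapped. The 95% interval of the difference was -0.65 to 0.58 between triploid and diploid clones and -0.28 to 0.95 between tetraploid and diploid clones.

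Egfr, the receptor of EGF and TGF-alpha, was at 2.54, 2.07 and 2.21 in triploid clones 1 to 3, at 0.17, 1.10 and 1.61 in tetraploid clones 1 to 3, and at 2.16, 1.89 and 0.69 in diploid clones 1 to 3. All triploid values lay above all tetraploid values, and the diploid values overlapped both. The difference between triploid and tetraploid clones was 1.32 ± 0.45 (adjusted p = 0.144, limma). The 2 other probes of Egfr gave 1.14 (adjusted p = 0.133) and 1.37 (adjusted p = 0.163), again with no overlap between these groups. The 10 spots of the brightest probe had an SD of at most 0.11 within an array.

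The receptors of platelet-derived growth factor lay on opposite sides of the diploid mean in triploid clones, and neither difference passed the test. Pdgfra, which encodes the alpha receptor of mesenchymal progenitors, was at 3.03, 2.03 and 1.35 in triploid clones 1 to 3, at 1.33, 1.35 and 2.79 in tetraploid clones 1 to 3, and at 0.41, 1.56 and 0.37 in diploid clones 1 to 3. Diploid clones 1 and 3 had the lowest values, and diploid clone 2 overlapped both other groups. The difference was 1.36 ± 0.55 between triploid and diploid clones (adjusted p = 0.1999, limma) and 1.04 ± 0.55 between tetraploid and diploid clones (adjusted p = 0.407). Without triploid clone 1, the difference from diploid clones was 0.91 (adjusted p = 0.342) and that from tetraploid clones turned sign, at -0.13 against 0.31 with it.

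Pdgfrb, which encodes the beta receptor of fibroblasts and pericytes, was at 1.43, -0.48 and -0.10 in triploid clones 1 to 3, at 2.08, 2.05 and 3.03 in tetraploid clones 1 to 3, and at 2.06, 2.96 and 1.16 in diploid clones 1 to 3. Triploid clones 2 and 3 had the lowest values of all 9, and triploid clone 1 lay within the diploid range. All triploid values lay below all tetraploid values. The difference was -1.78 ± 0.58 between triploid and diploid clones (adjusted p = 0.138, limma) and -2.11 ± 0.58 between triploid and tetraploid clones (adjusted p = 0.0872). Without triploid clone 1, both passed, at -2.35 (adjusted p = 0.0369) and -2.68 (adjusted p = 0.0235). No other alternative of 22 passed, and the highest adjusted p was 0.372 against diploid and 0.255 against tetraploid clones.

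Fgfr1, the main FGF receptor of mesenchyme, was the member with the widest range among those above background in all clones. It was at 3.89, 0.45 and 1.46 in triploid clones 1 to 3, at 4.23, 3.89 and 4.44 in tetraploid clones 1 to 3, and at 4.09, 4.11 and 4.16 in diploid clones 1 to 3. Triploid clones 2 and 3 lay far below all others, while triploid clone 1 lay just below the diploid clones and within the tetraploid range. The SD was 1.77 in triploid clones, against 0.28 in tetraploid and 0.04 in diploid clones (n = 3 each). The difference was -2.18 ± 0.70 between triploid and diploid clones (adjusted p = 0.133, limma) and -2.25 ± 0.70 between triploid and tetraploid clones (adjusted p = 0.118). Without triploid clone 1, these were -3.16 (adjusted p = 0.00187) and -3.23 (adjusted p = 0.00152), and no other alternative of 24 passed. Without triploid clone 2, they were -1.44 (adjusted p = 0.343) and -1.51 (adjusted p = 0.291). Tetraploid and diploid clones differed by 0.07, with a 95% interval of -1.52 to 1.66.

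The 3 probes of Fgfr1 disagreed. A second probe, A_55_P1967022, was at 0.26, -2.28 and -1.85 in triploid clones 1 to 3, between 0.59 and 1.33 in tetraploid clones and between 0.33 and 0.64 in diploid clones. It thus had triploid clones 2 and 3 low as the brightest probe, A_55_P2057777, did. The third, A_55_P1967015, was at 0.10, -0.19 and -0.54 in triploid clones, between -0.69 and 0.30 in tetraploid clones and between 0.09 and 0.37 in diploid clones, and so did not set triploid clones 2 and 3 apart. The difference between triploid and diploid clones was -1.75 by the second probe (adjusted p = 0.137) and -0.47 by the third (adjusted p = 0.396). All 3 carry the same RefSeq accession, and where they lie in the transcript was not analysed here.

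**Figure D2:**
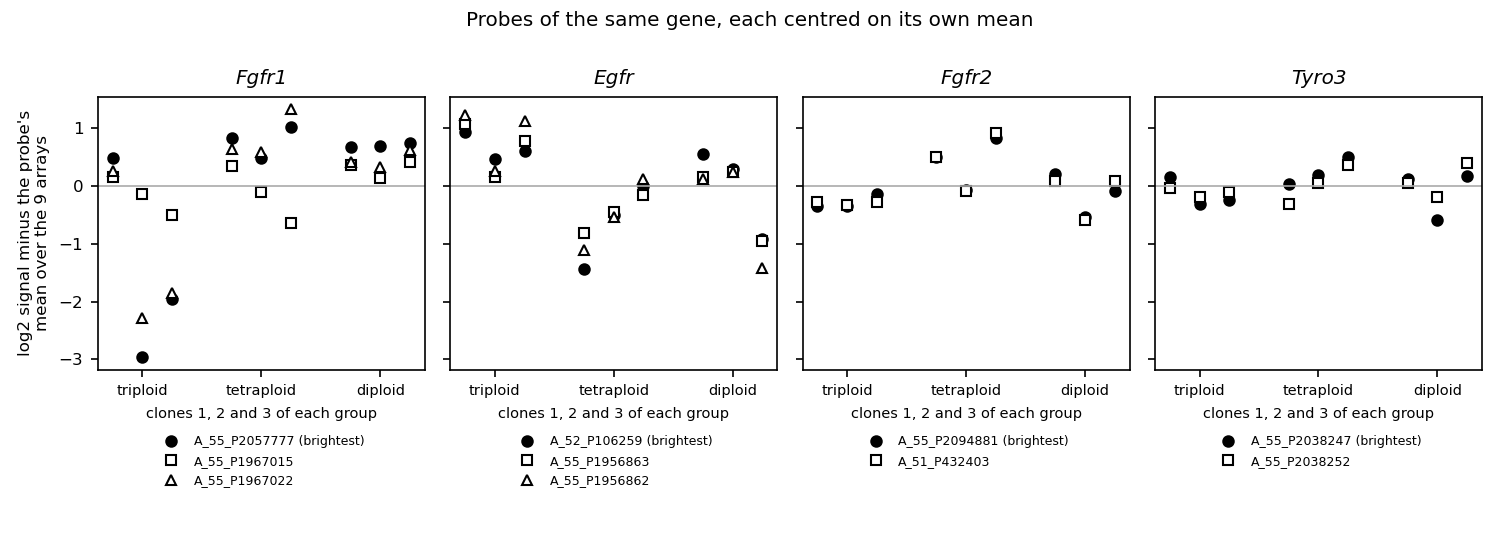
Log2 signal of each probe minus its own mean over the 9 arrays (y axis) for the 4 genes with more than 1 probe, by group with clones 1, 2 and 3 from left to right (x axis); filled points are the brightest probe. At Fgfr1, the probes A_55_P2057777 and A_55_P1967022 both place triploid clones 2 and 3 low, and A_55_P1967015 does not, whereas the probes of Egfr, Fgfr2 and Tyro3 follow each other more closely.

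Fgfr2, the FGF receptor with an epithelial and a mesenchymal splice form, was at -1.30, -1.31 and -1.09 in triploid clones 1 to 3, at -0.45, -1.03 and -0.13 in tetraploid clones 1 to 3, and at -0.75, -1.50 and -1.05 in diploid clones 1 to 3. Tetraploid values lay above all triploid values, and the diploid values overlapped both groups. The difference was -0.70 ± 0.29 between triploid and tetraploid clones (adjusted p = 0.212, limma). After centring on their own means, its 2 probes differed by at most 0.17 on any array. Which splice form the probes detect was not analysed here.

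In the test over all features, 0 of the 8 receptors tested passed in any of the 3 comparisons, or for any difference among the 3 groups. The features tested were 12437 named genes and 9363 probes without a gene name, so shares of all features are not shares of genes alone. The background was 2.38% of 21800 features for any difference, 1.83% between triploid and diploid clones, 0.0734% between tetraploid and diploid clones and 2.7% between triploid and tetraploid clones. At an unadjusted p below 0.05 there were 5, 1 and 5 of the 8 in these comparisons, against 21.2%, 14.8% and 20.8% of all features. Of the 8, 1 lay wholly above and 2 wholly below the diploid clones in triploid clones, against 17.2% and 10.8% of all features (28% in either direction). In tetraploid clones 1 lay wholly below the diploid clones (11.1% of features, 22.1% in either direction) and 0 wholly above. Between triploid and tetraploid clones 2 lay wholly above and 2 wholly below (14.7% and 11.3% of features, 26% in either direction). The median log2 difference of the 8 receptors was -0.09 between triploid and diploid clones, 0.20 between tetraploid and diploid clones and -0.26 between triploid and tetraploid clones, against 0.10, -0.01 and 0.17 over all features.

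**Figure D3:**
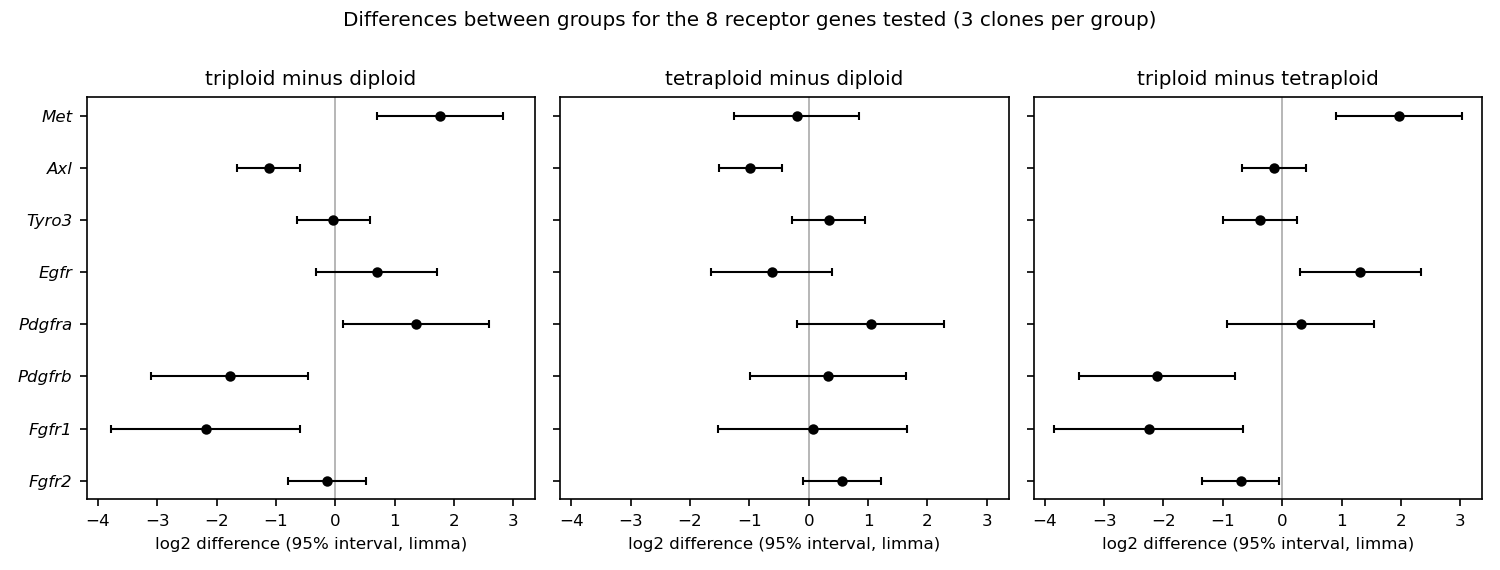
Log2 differences (x axis) of the 8 tested receptor genes (y axis) between triploid and diploid, tetraploid and diploid, and triploid and tetraploid clones, 3 clones per group; points are differences and bars 95% intervals from limma, not adjusted for the number of features. Met lies at 1.76, Axl at -1.12 and Fgfr1 at -2.18 in the first panel, and no difference passed the adjusted threshold.

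The ligands of the receptors included genes that passed the test. Of 24 ligand genes listed, 12 had a level that could be tested, 1 was lower in triploid than in diploid clones, 2 were lower in triploid than in tetraploid clones and 0 were higher. Of all features, 1.22% were lower and 0.615% higher in triploid than in diploid clones, and 1.61% were lower and 1.09% higher in triploid than in tetraploid clones. The median difference of the 12 was -1.04 between triploid and diploid clones and -1.29 between triploid and tetraploid clones, against 0.10 and 0.17 over all features. Pdgfd, a ligand of the beta PDGF receptor, was at -1.75, -3.89 and -2.36 in triploid clones 1 to 3, at 2.57, 1.01 and 2.37 in tetraploid clones and at 1.68, 0.53 and 3.35 in diploid clones. All triploid values lay below all others, and triploid clone 2 was not above background. Pdgfd fell by 4.52 ± 0.78 on the log2 scale against diploid clones (adjusted p = 0.0297, limma) and by 4.65 ± 0.78 against tetraploid clones (adjusted p = 0.0213). With the dim array set to the lowest signal above background, the differences were -4.52 (adjusted p = 0.0326) and -4.65 (adjusted p = 0.0182). The first call ended in 8 of 21 other settings and the second in 4. All 10 calls on pathway genes given here and below ended without triploid clone 2 and again without triploid clone 3, where their adjusted p was 0.0668 to 0.153. Without triploid clone 1 all 10 kept their call, with adjusted p of 0.000121 to 0.0281.

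Fgf10, a ligand of the epithelial form of FGFR2, was at -0.55, -5.91 and -5.72 in triploid clones 1 to 3, at 2.18, 1.28 and 2.53 in tetraploid clones and at 0.36, -1.04 and 0.01 in diploid clones. Triploid clones 2 and 3 were not above background, and triploid clone 1 lay within the diploid range. Fgf10 fell by 6.06 ± 1.23 on the log2 scale against tetraploid clones (adjusted p = 0.0385, limma), a size that rests on 2 undetected values. With these at the lowest signal above background it was -4.71 (adjusted p = 0.0220), and without triploid clone 1 it was -7.81, from undetected triploid values alone. The call ended in 11 of 21 other settings. Fgf7 and Fgf18 did not pass and were singled out after their values were seen. Fgf7, which binds the same form of FGFR2, was at 5.37, -4.55 and -4.99 in triploid clones 1 to 3, the last 2 of them not above background, against 4.53, 3.41 and 4.65 in tetraploid and 3.16, 4.44 and 4.31 in diploid clones. Fgf18 was at -0.87, 2.97 and 2.95 in triploid clones 1 to 3, against -1.05, -0.52 and 0.75 in tetraploid and -1.07, -0.77 and -1.45 in diploid clones. At both genes, triploid clones 2 and 3 lay outside the range of the other 7 clones. Gas6, the ligand of AXL and TYRO3 and likewise singled out afterwards, was at -0.09, 2.54 and 5.08 in triploid clones 1 to 3, against 4.64, 1.83 and 6.85 in tetraploid and 2.17, 4.50 and 3.01 in diploid clones. It varied more within each group than Axl did between groups.

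Among 16 FGF co-receptors and modulators, 13 were tested. Of these, 1 was lower in triploid than in diploid clones, 2 were lower in triploid than in tetraploid clones and 0 were higher. Of all features, 1.22% and 1.61% were lower in these comparisons, and 0.615% and 1.09% higher. The median difference of the 13 was -0.70 between triploid and diploid clones and -1.19 between triploid and tetraploid clones. Over all features it was 0.10 and 0.17. Sdc3, a heparan sulphate proteoglycan of the syndecan family, was at -0.53, -2.59 and -1.86 in triploid clones 1 to 3, at 0.71, 0.26 and 2.23 in tetraploid clones and at 1.53, 1.16 and 1.38 in diploid clones. It fell by 3.02 ± 0.59 on the log2 scale against diploid clones (adjusted p = 0.0445, limma) and by 2.73 ± 0.59 against tetraploid clones (adjusted p = 0.0462). Sdc2, another syndecan, was at 4.18, 3.50 and 3.90 in triploid clones 1 to 3, at 5.49, 5.71 and 5.66 in tetraploid clones and at 4.26, 3.92 and 4.77 in diploid clones. It was lower by 1.76 ± 0.28 on the log2 scale in triploid than in tetraploid clones (adjusted p = 0.0173, limma). All tetraploid values lay above all others, while triploid and diploid clones overlapped. Neither the difference of -0.45 between triploid and diploid clones (adjusted p = 0.383) nor that of 1.30 between tetraploid and diploid clones (adjusted p = 0.101) passed. The calls on Sdc3 ended in 11 and 15 of 22 other settings and that on Sdc2 in 5 of 22.

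Of 39 other receptor tyrosine kinases, 25 were tested and 1 was called, lower in triploid clones than in both other groups. Of all features, 1.22% were lower in triploid than in diploid clones and 1.61% lower than in tetraploid clones. Epha3, an ephrin receptor, was not above background in any triploid clone and was above background in the other 6 clones, with values of -1.37, -2.56 and 0.05 in tetraploid clones and of -1.40, -1.52 and -1.46 in diploid clones. Its signal in triploid clones was lower by at least 4.94-fold against diploid clones and by at least 5.55-fold against tetraploid clones. The calls come from a fit on the undetected triploid values themselves, not on these bounds (adjusted p = 0.0450 and 0.0315, limma). These calls ended in 11 and 9 of 21 other settings. With the dim arrays at the lowest signal above background, the first ended (adjusted p = 0.0636, limma) and the second was kept. Of 8 genes that process HGF and macrophage-stimulating protein or inhibit this, 4 were tested. Of these, 1 was higher in triploid than in diploid clones, as were 0.615% of all features. Hgfac, the protease that activates HGF, was above background only in the 3 triploid clones, at -2.89, -2.99 and -2.98, and so entered the test through the group where it is high. It was at least 1.79-fold higher there than in diploid clones. The call comes from a fit on the undetected diploid values themselves, not on this bound (adjusted p = 0.0315, limma). With the 6 dim arrays at the lowest signal above background it did not pass (0.84, adjusted p = 0.198), and the call ended in 12 of 21 other settings in all.

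Adaptors and proximal effectors such as Grb2, Gab1 and Frs2 had 0 of 19 tested members called in any comparison, with a median difference of 0.11 between triploid and diploid clones and of -0.05 between triploid and tetraploid clones. Of 21 tested genes that down-regulate receptors, 1 was called, higher in triploid than in tetraploid clones, as were 1.09% of all features. Ptprj, a receptor phosphatase, was at -1.50, -0.58 and -1.34 in triploid clones 1 to 3 and at -2.87, -3.93 and -3.20 in tetraploid clones, and rose by 2.19 ± 0.37 on the log2 scale (adjusted p = 0.0233, limma). Tetraploid clone 2 and diploid clone 2 were not above background, so Ptprj entered the test through the triploid clones alone. With dim arrays at the lowest signal above background the difference was 2.22 (adjusted p = 0.0283). Its call ended in 5 of 21 other settings. Between tetraploid and diploid clones, 0 members of any of these lists passed in limma, against 0.0734% of all features.

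**Figure D4:**
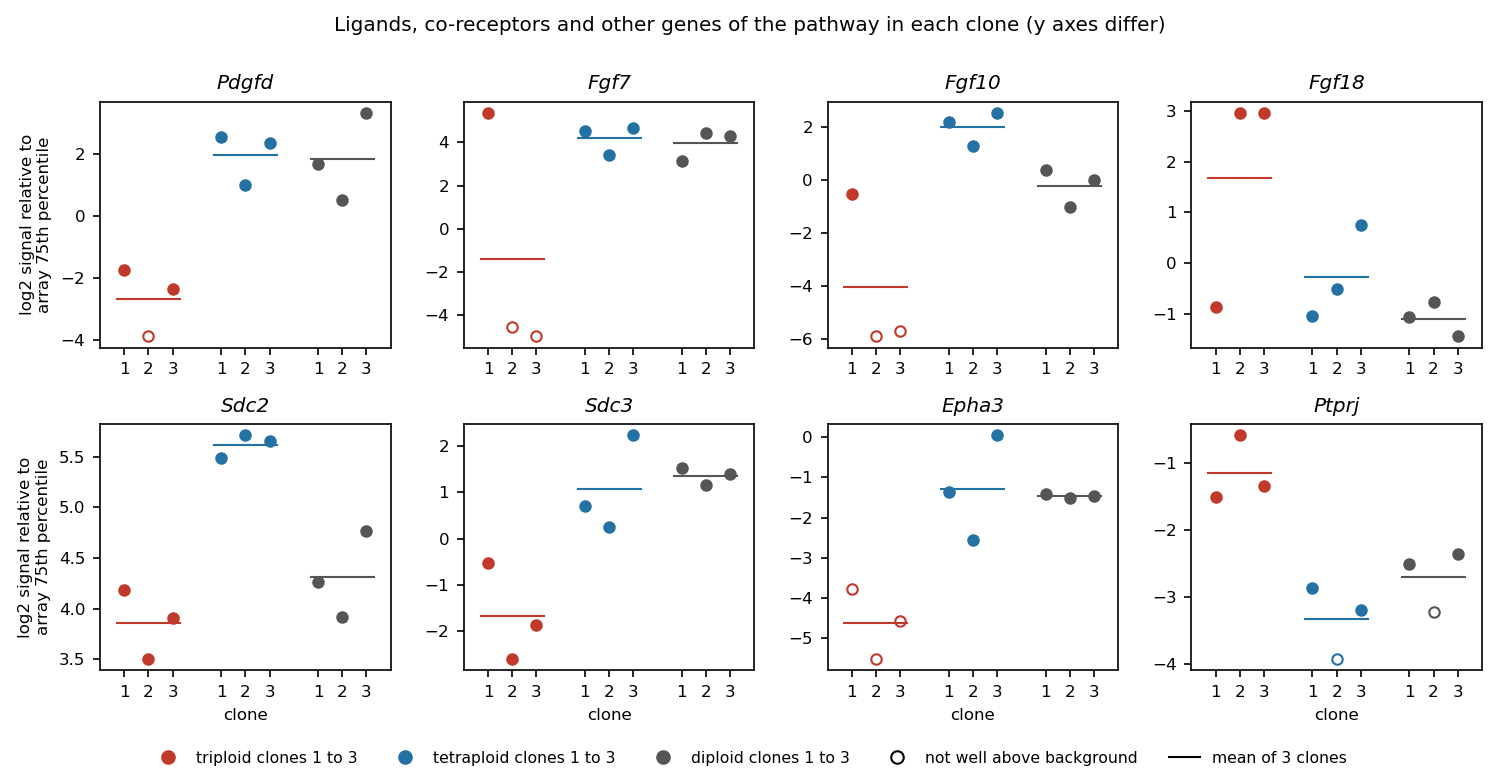
Log2 signal relative to the array's 75th percentile (y axis, a scale per gene) of 4 ligand genes, 2 syndecans, Epha3 and Ptprj in triploid, tetraploid and diploid clones 1 to 3 (x axis); open points are not well above background and lines are means of 3 clones. Pdgfd is lower in all 3 triploid clones than in any other clone, and Fgf7 and Fgf10 are not above background in triploid clones 2 and 3.

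Profiles were compared with 10992 other named genes above background on all 9 arrays, as the root mean square (RMS) difference of log2 values after centring each gene on its mean over the 9 arrays. The gene nearest to Fgfr1 was Epb41l3, at an RMS difference of 0.25, where Fgfr1 itself spread by 1.34 about its mean. Epb41l3 was at 4.67, 1.31 and 1.58 in triploid clones 1 to 3 and between 4.72 and 5.45 in the other 6 clones, so the same clones were low. Mylip (0.28) and Fst (0.39) followed. Nearest to Pdgfrb, which spread by 1.15, were Rgcc (0.48), the glypican Gpc4 (0.48) and the transcription factor gene Twist2 (0.49).

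Nearest to Met, which spread by 1.03, were Ppat (0.32), Zfp184 (0.34) and Nolc1 (0.34). Nearest to Axl, which spread by 0.54, were Crtc3 (0.16), Akap13 (0.16) and Samd4b (0.18). Nearest to Egfr, at a spread of 0.75, was Mex3a (0.31), followed by Tut4 (0.39) and Lrrc8b (0.40), and nearest to Pdgfra, at a spread of 0.87, was Ypel1 (0.33), followed by Gprc5b (0.40) and Cebpd (0.43). Fgfr2 spread by 0.42 and was nearest to Pigs (0.11), Chst14 (0.15) and Tmem127 (0.16), and Tyro3 spread by 0.31 and was nearest to Cpt2, Nptn (both 0.14) and Smarcal1 (0.15). These are descriptions of 9 arrays, and arrays share scaling and slide.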

How the data were processed

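Total RNA of 9 clones was labelled with Cy3 and hybridised to 1 Agilent array each, per the labels' protocols. The deposited scanner files hold processed intensity per spot, made by Agilent Feature Extraction 10.7.3.1 on an mm9 design, per the file headers, after background subtraction and detrending and with no scaling between arrays. The authors also deposited a log2 table relative to diploid clone 1, which matched the scanner values within 0.001 after 1 constant per array and was used as an alternative.

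Control spots and outlier spots were left out. Log2 processed signals were averaged over spots of a probe and centred on the 75th percentile of each array. A probe was kept when it lay well above background (at least 0.5 of its spots) on all arrays of at least 1 group, which left 25473 of 55681 probes. Names came from RefSeq accessions through a GRCm38.p6 table, which named 26413 probes. The brightest kept probe stood for a gene, and each kept probe without a gene name stood for itself. This gave 21800 features, 12437 named genes and 9363 unnamed probes. Groups were compared with limma 3.58.1 in R 4.3.3, with 1 mean per ploidy group over all 9 arrays, eBayes (3.19 prior degrees of freedom) and p-values adjusted by Benjamini-Hochberg across the features, at a threshold of 0.05. The fit was tested on simulated data. Precision is limited by having 3 clones per group.

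The members and gene lists were chosen with earlier results of these data known. All 10 members were named, and from each list the genes called in at least 1 comparison. The clone numbers in the labels did not pair the clones. Alternatives covered background correction (normexp, offset 50, on median pixel signals, since the files hold no mean pixel signal), scaling, filters, probe choice, slide, the clone number as a block and leaving out each clone. Slide and scan gave the same split, so scan was not run apart.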

Additional observations from a re-analysis of the deposited data

How the results depend on the processing

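Of the 552 repeats of the differences of single receptors and Hgf under other settings, 520 kept direction and side of the threshold, 14 passed where the main value did not, and 18 turned sign. The causes of these changes were not tested. Settings that leave both group means as they are, such as leaving out a clone of the third group, kept the direction by construction. The number of receptors called between triploid and diploid clones was 1, Axl, with normexp background correction, with the 75th percentile over probes detected on all arrays, with probes above background on all 9 arrays and with a robust trend in the variance. It ranged from 0 to 3 with a clone left out, 3 being Axl, Fgfr1 and Pdgfrb without triploid clone 1. Between triploid and tetraploid clones it was 1, Met, with normexp and with probes above background on all 9 arrays, and from 0 to 3 with a clone left out. For any difference among the groups it was 1, Axl, with the robust trend and from 0 to 3 with a clone left out. Between tetraploid and diploid clones it was 0 throughout.

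The count of all features called moved by more than 1.5 times as follows. Between triploid and diploid clones, against 400, it was 241 with the array median, 103 with no filter on dim probes (more features tested), 81 with slide as a block, 219 with the replicate block and 206 with only the 2 groups compared, and 61 to 1434 with a clone left out. Between tetraploid and diploid clones, against 16, it was 9 with normexp, 97 with probes detected on all arrays for scaling, 5 with quantile normalization, 4 with the array median, 0 with no filter, 6 with dim arrays at the lowest signal above background, 0 with slide as a block, 0 with the replicate block and 0 to 40 with a clone left out. Between triploid and tetraploid clones, against 589, it was 198 with no filter, 284 with slide as a block, 369 with only the 2 groups compared and 117 to 1312 with a clone left out. For any difference among the groups, against 518, it was 794 with probes detected on all arrays for scaling, 153 with no filter, 173 with slide as a block and 75 to 1461 with a clone left out. Slide as a block equals leaving out diploid clone 1. The replicate block changed no call on a receptor, and same-numbered clones deviated together at correlations of -0.13 to 0.09.

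The sign turned where the main difference was small. Tyro3 between triploid and diploid clones (-0.04) was at 0.0039 with normexp, 0.0755 with slide as a block, and -0.28 to 0.10 with a clone left out (above 0 without triploid clone 2, triploid clone 3, diploid clone 1 or diploid clone 3). Fgfr2 between triploid and diploid clones (-0.14) was at 0.0391 with slide as a block and -0.34 to 0.0391 with a clone left out. Met between tetraploid and diploid clones (-0.21) was at 0.19 with slide as a block and -0.63 to 0.20 with a clone left out. Fgfr1 between tetraploid and diploid clones (0.07) was at -0.0558 with probes detected on all arrays for scaling, -0.0334 with quantile normalization, -0.0567 to 0.22 with a clone left out and -0.44 by its probe A_55_P1967015. Pdgfrb between tetraploid and diploid clones (0.33) was at -0.13 to 0.78 with a clone left out (below 0 without diploid clone 3), Tyro3 (0.34) was at -0.0537 by its other probe, and Pdgfra between triploid and tetraploid clones (0.31) was at -0.13 to 0.79 with a clone left out (below 0 without triploid clone 1). The array median moved the median of all features between triploid and tetraploid clones to -0.09, against 0.17, and between tetraploid and diploid clones to 0.15, against -0.01. Scaling on probes detected on all arrays moved the second to -0.14. Calls on single pathway genes were lost in 91 of 213 repeats, and turned sign in 0. For Mst1r and Hgf, which lay near background in most clones, the arrays' detection limit bounds every comparison.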
